A study of Drosophila melanogaster with 8 samples.

Results

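These are the testis RNAs that were under-represented among the RNAs recovered on anti-HA beads, both from testes that carried HA-tagged HOW(S) and from testes that did not. They comprised 73 transcripts out of 13172 that could be judged, or 0.554% of them, and out of 30070 transcripts in the deposited tables. Held out wings (HOW) is a STAR family RNA-binding protein and the fly ortholog of Quaking, and HOW(S) is its short, cytoplasmic isoform. In RNA immunoprecipitation sequencing (RIP-seq) a tagged protein is drawn out of a lysate on antibody beads, and the RNA retained with it is sequenced together with RNA of the lysate, the input. RNA also stays on beads that hold no tagged protein, and some RNAs stay less readily than others. A ratio of pull-down to input therefore has a low end as well as a high end, and the transcripts described here are part of that low end.

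The pull-downs and inputs came from 2 lines of Drosophila melanogaster. In the HOW(S)-HA line, of genotype UAS-HOW-S-HA/nanos-GAL4, the tagged protein is made where the driver is active, in early spermatogonia and germline stem cells, and 3 pairs of pull-down and input were sequenced. In the nanos-GAL4 parent line, of genotype nanos-GAL4/nanos-GAL4, there was no tagged protein, and 1 pair was sequenced, with no replicate. Both lines carried the driver, all males were up to 3 days old, and each library was a pool of many dissected testes. The input was a portion of the cleared lysate of the whole tissue, so the cells that made HOW(S)-HA were a small part of what was measured. In bulk lysates fewer cells of a type and less RNA per cell cannot be told apart. The deposited identifiers could not be paired with marker genes here, so the labelled tissue was not checked against markers.

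The libraries held between 9.13 M and 24.0 M estimated reads. HOW(S)-HA input 1 was the shallowest, at 9.13 M, and the other 7 libraries held at least 19.9 M. Levels are given as TPM, read numbers corrected for transcript length and scaled to a fixed total per library. The transcript how-RB (FBtr0084178) was at 15.4, 7.17 and 2.19 TPM in the HOW(S)-HA pull-downs and 0.457, 0.844 and 0.538 TPM in their inputs, and at 2.51 TPM in the nanos-GAL4 pull-down and 1.02 TPM in the nanos-GAL4 input, so that it was not higher in the inputs of the HOW(S)-HA line. Transcripts of 300 nucleotides (nt) or shorter took 49.4%, 46.4% and 57.5% of the TPM of the HOW(S)-HA pull-downs, against 68.2%, 60.6% and 62.3% of the matching inputs. In the nanos-GAL4 line they took 36.2% of the pull-down and 57.1% of the input. Longer transcripts together took correspondingly more of the TPM of the pull-downs. The median log2 ratio of pull-down to input over the 13172 transcripts was 1.17, 0.73 and 0.26 in HOW(S)-HA pairs 1, 2 and 3 and 0.68 in the nanos-GAL4 pair. How much of this median went with the share of short transcripts was not tested. Every ratio below is the log2 of pull-down TPM over input TPM less this median of its pair, and is called the centred ratio.

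Transcripts were selected on these measured ratios. A transcript could be judged, or was eligible, if it was over 300 and under 10000 nt long, had at least 20 estimated reads in all 8 libraries and was not among the 200 most abundant of that length range. It was taken as depleted if its centred ratio was -0.7 or lower in all 4 pairs. Such a low ratio was reached in at least 1 pair by 3446 eligible transcripts, in at least 2 pairs by 1290, in at least 3 by 432 and in all 4 by 73. The ratios of the 73 are therefore given as a description, with no test. By pair, 16.1%, 10.6% and 3.84% of all eligible transcripts were at or below -0.7 in HOW(S)-HA pairs 1, 2 and 3 and 9.25% in the nanos-GAL4 pair, while all of the depleted transcripts were so by the way they were chosen. The ratios of HOW(S)-HA pair 3 were the least spread, with an SD of 0.58 over the eligible transcripts against 0.899, 0.763 and 0.734 in HOW(S)-HA pairs 1 and 2 and the nanos-GAL4 pair. Pair 3 was the pair in which 55 of the 73 came closest to the threshold, so it set most of the membership.

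The depleted transcripts had median centred ratios of -1.31, -1.54 and -0.88 in HOW(S)-HA pairs 1, 2 and 3, and of -1.27 in the nanos-GAL4 pair. The lowest single values were -7.04, -3.78 and -2.42 in the HOW(S)-HA pairs and -3.93 in the nanos-GAL4 pair. The mean of the 4 pairs lay between -3.92 and -0.777, with a median of -1.3. It was -1 or lower for 62 of the 73 transcripts and -2 or lower for 6. In all 4 pairs a centred ratio of -1 or lower was found for 16. Most of the set was thus lost to a moderate and similar extent, and a few transcripts were lost far more.

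**Figure D1:**
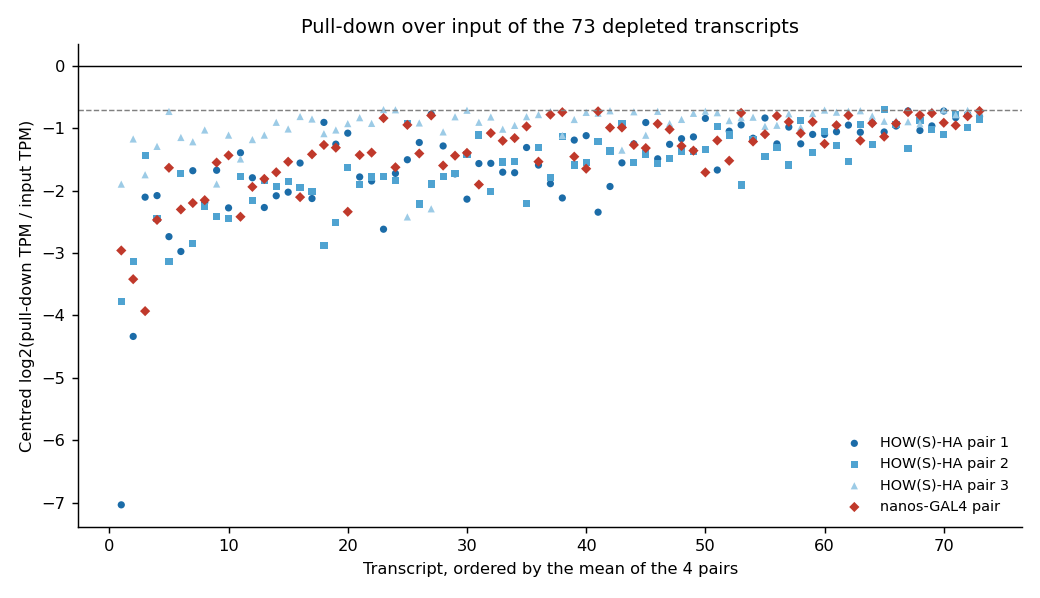
Centred log2 ratio of pull-down to input TPM (vertical axis) of each of the 73 depleted transcripts, ordered from left to right by the mean of the 4 pairs. Blue symbols are the 3 HOW(S)-HA pairs, red diamonds the nanos-GAL4 pair and the dashed line the threshold of -0.7; most points lie between -0.7 and -2.5, the pale triangles of HOW(S)-HA pair 3 stay closest to the threshold, and 1 point of HOW(S)-HA pair 1 lies at -7.04.

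The TPM values before centring are a description too, since the threshold corresponds to an uncentred log2 ratio of 0.47, 0.03 and -0.44 in HOW(S)-HA pairs 1, 2 and 3 and of -0.02 in the nanos-GAL4 pair, and so required a lower or nearly lower TPM in the pull-down in all pairs but HOW(S)-HA pair 1. For 45 of the 73 transcripts (61.6%) the pull-down had the lower TPM in all 4 pairs, against 1.04% of all eligible transcripts. This was so in 3 pairs for 27 of the 73 and in 2 pairs for 1. In HOW(S)-HA pair 1, where the median ratio was highest, a transcript could be selected although its TPM was higher in the pull-down, and 45 of the 73 had a lower one. Summed over the set, TPM was 1658, 1433 and 1731 in the HOW(S)-HA pull-downs, against 2388, 2632 and 2627 in the matching inputs. In the nanos-GAL4 line the sum was 1837 in the pull-down and 2988 in the input. The other eligible transcripts together went the opposite way, at 31.5%, 33.0% and 24.5% of the TPM of the HOW(S)-HA pull-downs against 15.3%, 21.3% and 20.2% of their inputs, and at 40.9% of the nanos-GAL4 pull-down against 24.6% of its input.

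None of the 73 identifiers could be paired here with a gene, so the transcripts are given by their FlyBase identifiers, with no role. The most depleted was FBtr0346872, of 1721 nt. It was at 3.32, 2.15 and 6.17 TPM in the HOW(S)-HA pull-downs and at 194, 17.8 and 19.1 TPM in their inputs. In the nanos-GAL4 line it was at 6.45 TPM in the pull-down and 31.4 TPM in the input. All 4 pull-downs were below all 4 inputs. The inputs themselves were far apart, with HOW(S)-HA input 1 well above the rest, and the centred ratios of -7.04, -3.78, -1.89 and -2.96 in HOW(S)-HA pairs 1, 2 and 3 and the nanos-GAL4 pair differed accordingly.

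FBtr0346895, of 2689 nt, was the next lowest and also one of the most abundant of the set. Its TPM was 30.6, 22.4 and 66.2 in the HOW(S)-HA pull-downs and 275, 118 and 124 in their inputs, and 43.8 in the nanos-GAL4 pull-down and 293 in the nanos-GAL4 input. The pull-downs again lay below every input. The mean centred ratio was -3.01, with the smallest loss, -1.17, in HOW(S)-HA pair 3. Without FBtr0346872 and FBtr0346895, the summed TPM of the remaining 71 transcripts was 1624, 1408 and 1659 in the HOW(S)-HA pull-downs against 1919, 2496 and 2484 in their inputs, and 1786 in the nanos-GAL4 pull-down against 2664 in its input. The sum stayed lower in the pull-down in every pair.

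FBtr0332358, of 2096 nt, was a much rarer RNA and differed most between the lines. It was at 0.389, 1.49 and 1.01 TPM in the HOW(S)-HA pull-downs and at 0.744, 2.44 and 2.82 TPM in their inputs. In the nanos-GAL4 line it was at 0.501 TPM in the pull-down and 4.78 TPM in the input. The levels of HOW(S)-HA pull-downs 2 and 3 were above that of HOW(S)-HA input 1, so the groups overlapped although every pull-down was below its own input. As few as 23.9 estimated reads stood behind its value in HOW(S)-HA pull-down 1 and 26.4 behind that in the nanos-GAL4 pull-down.

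FBtr0305657, of 5253 nt, was the longest of the 10 most depleted transcripts, and its reads were whole numbers in all libraries, which means that Salmon did not have to divide them among similar transcripts. Its TPM was 0.277, 0.147 and 0.254 in the HOW(S)-HA pull-downs and 0.52, 0.483 and 0.518 in their inputs, and 0.372 in the nanos-GAL4 pull-down and 1.29 in the nanos-GAL4 input. All pull-downs were below all inputs, and the 3 HOW(S)-HA inputs were nearly equal. The counts were small, with 46, 28 and 60 reads in the HOW(S)-HA pull-downs and 89, 141 and 150 in their inputs, and with 53 reads in the nanos-GAL4 pull-down and 306 in its input.

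FBtr0304964, of 3406 nt, was at 1.38, 0.619 and 2.15 TPM in the HOW(S)-HA pull-downs and at 4.09, 3.29 and 2.97 TPM in their inputs, and at 1.34 TPM in the nanos-GAL4 pull-down and 2.59 TPM in the nanos-GAL4 input. The pull-downs did not overlap the inputs, but the centred ratio ranged between -3.14 in HOW(S)-HA pair 2 and -0.73 in HOW(S)-HA pair 3. FBtr0346892, of 1975 nt, was at 7.95, 5.44 and 6.36 TPM in the HOW(S)-HA pull-downs and at 27.8, 10.9 and 11.7 TPM in their inputs, and at 5.47 TPM in the nanos-GAL4 pull-down and 16.9 TPM in the nanos-GAL4 input. Here the pull-downs were alike in the 2 lines and HOW(S)-HA input 1 was again the highest of the inputs. FBtr0310554, of 1622 nt, had the opposite pattern in HOW(S)-HA pair 1. It was at 15.1, 17.8 and 44.6 TPM in the HOW(S)-HA pull-downs and at 21.5, 77.0 and 86.2 TPM in their inputs, and at 29.3 TPM in the nanos-GAL4 pull-down and 84.1 TPM in the nanos-GAL4 input. HOW(S)-HA input 1 was the low one, below HOW(S)-HA pull-down 3 and the nanos-GAL4 pull-down.

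The last 3 of the 10 most depleted transcripts had steadier inputs. FBtr0110769, of 1394 nt, was at 88.4, 45.8 and 83.1 TPM in the HOW(S)-HA pull-downs and at 179, 132 and 141 TPM in their inputs, and at 52.0 TPM in the nanos-GAL4 pull-down and 145 TPM in the nanos-GAL4 input. FBtr0345018, of 1435 nt, was at 49.2, 35.0 and 63.4 TPM in the HOW(S)-HA pull-downs and at 106, 115 and 114 TPM in their inputs, and at 71.8 TPM in the nanos-GAL4 pull-down and 121 TPM in the nanos-GAL4 input. Both were abundant RNAs whose pull-downs and inputs did not overlap. FBtr0072612, of 2201 nt, was at 2.44, 1.25 and 1.48 TPM in the HOW(S)-HA pull-downs and at 3.47, 4.0 and 4.58 TPM in their inputs, and at 3.16 TPM in the nanos-GAL4 pull-down and 5.79 TPM in the nanos-GAL4 input, again without overlap.

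**Figure D2:**
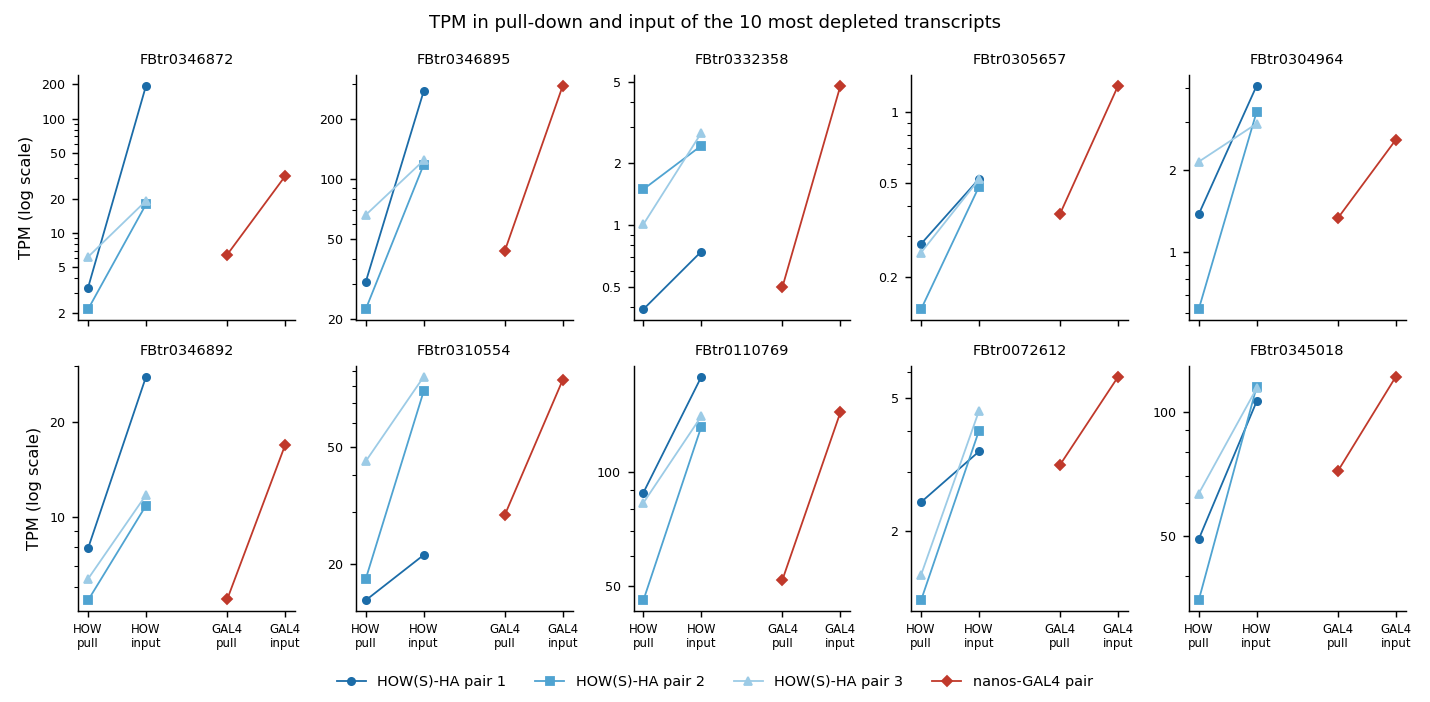
TPM (log scale) of the 10 most depleted transcripts, in separate panels, with pull-down and input of a pair joined by a line. Blue lines are the 3 HOW(S)-HA pairs and the red line is the nanos-GAL4 pair; all 40 lines climb to the input side, while the level of the inputs differs between pairs most for FBtr0346872, where HOW(S)-HA input 1 was at 194 TPM and the other inputs between 17.8 and 31.4 TPM.

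The 5 most abundant of the 73, by their mean over the 4 inputs, were FBtr0301263 (243 TPM), FBtr0346895 (203 TPM), FBtr0083964 (193 TPM), FBtr0080306 and FBtr0073447 (both 182 TPM). Apart from FBtr0346895 they were short, between 410 and 776 nt, and were lost only moderately. FBtr0073447 was at 103, 82.3 and 115 TPM in the HOW(S)-HA pull-downs and at 157, 185 and 170 TPM in their inputs, and at 127 TPM in the nanos-GAL4 pull-down and 215 TPM in the nanos-GAL4 input. All its pull-downs were below all its inputs. FBtr0083964 was at 153, 119 and 136 TPM in the HOW(S)-HA pull-downs and at 148, 209 and 190 TPM in their inputs, and at 115 TPM in the nanos-GAL4 pull-down and 225 TPM in the nanos-GAL4 input. Its pull-down of HOW(S)-HA pair 1 was slightly above the input, which after centring was a ratio of -1.12. FBtr0080306 behaved alike, at 142, 105 and 152 TPM in the HOW(S)-HA pull-downs and 141, 164 and 229 TPM in their inputs, and at 127 TPM in the nanos-GAL4 pull-down and 193 TPM in the nanos-GAL4 input.

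FBtr0301263 was at 158, 172 and 203 TPM in the HOW(S)-HA pull-downs and at 136, 300 and 280 TPM in their inputs, and at 237 TPM in the nanos-GAL4 pull-down and 257 TPM in the nanos-GAL4 input. At 410 nt it was also one of the 3 shortest transcripts of the set, with FBtr0308782 (368 nt) and FBtr0082006 (370 nt). Over the 4 pairs the mean centred ratios of these short RNAs were -1.0, -1.09 and -1.16, all nearer to 0 than the median of -1.3 of the set. The 3 longest, FBtr0301124 (8145 nt), FBtr0302047 (6572 nt) and FBtr0305657, had mean centred ratios of -1.53, -1.48 and -2.07. FBtr0301124 was the rarest RNA of the set. Its TPM was 0.222, 0.132 and 0.169 in the HOW(S)-HA pull-downs and 0.236, 0.454 and 0.287 in their inputs, and 0.421 in the nanos-GAL4 pull-down and 0.653 in the nanos-GAL4 input.

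The set was open at its edge. By the highest of their 4 centred ratios, the members just inside the threshold were FBtr0302047 (-0.70), FBtr0306105 (-0.703) and FBtr0089516 (-0.704), and the eligible transcripts just outside it were FBtr0305350 (-0.699), FBtr0088709 (-0.698) and FBtr0076254 (-0.696). For 35 of the 73 the counting error of the ratio was larger than the distance to the threshold in at least 1 pair. For 22 all 4 ratios lay at least 2 counting standard errors below it. FBtr0089516, of 4808 nt, was the transcript with a lower TPM in the pull-down in 2 of the 4 pairs. It was at 1.15, 0.554 and 0.608 TPM in the HOW(S)-HA pull-downs and at 1.06, 0.545 and 0.936 TPM in their inputs, and at 0.693 TPM in the nanos-GAL4 pull-down and 0.951 TPM in the nanos-GAL4 input, so that its groups overlapped. None of the 29 eligible transcripts with a gene name was in the set. The nearest were the isoforms of Mapmodulin. Mapmodulin-RA (FBtr0086823) had centred ratios of -1.27, -1.42 and -0.59 in HOW(S)-HA pairs 1, 2 and 3 and of -0.91 in the nanos-GAL4 pair, and was left out through HOW(S)-HA pair 3.

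Whether RNAs that were low in some pairs were also low in another pair was examined by leaving the ratio of each pair out of the selection. Eligibility still used the reads and inputs of all 8 libraries. Chosen on the 3 HOW(S)-HA pairs alone, 92 transcripts (0.698% of those eligible) were at or below -0.7. In the nanos-GAL4 pair, whose ratio had not been used for the choice, these 92 had a median centred ratio of -1.08, and 87 of them were below 0. The threshold was reached there by 73 of them (79.3%), against 9.25% of all eligible transcripts. Of the 1219 transcripts that were at or below -0.7 in the nanos-GAL4 pair, those 73 were 5.99%. The RNAs lost in every HOW(S)-HA pair were thus mostly lost in the single nanos-GAL4 pair as well. Since only 92 transcripts reached the threshold in all 3 HOW(S)-HA pairs, most of the 1219 could not be among them. The 5.99% therefore does not compare the lines. The part of length in these shares was not tested.

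The same was done for each HOW(S)-HA pair. Since the transcripts that reach the threshold in the left-out pair are always the same 73, the shares differ only in how many transcripts the other pairs chose, and they do not compare pairs or lines. Of the 89 transcripts chosen without HOW(S)-HA pair 2, 82.0% were at or below -0.7 in that pair, against 10.6% of the eligible transcripts, with a median of -1.39. Of the 132 chosen without HOW(S)-HA pair 1, 55.3% were so in that pair, against 16.1%, with a median of -0.84. Of the 338 chosen without HOW(S)-HA pair 3, 21.6% were so in that pair, against 3.84%, with a median of -0.51, and 315 of the 338 were below 0. These 338 were shorter than the 73, with a median of 917 nt, and length went with the ratio in all eligible transcripts, as given below. The part of length in these values was not tested.

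The size of the loss with and without HOW(S)-HA comes from the values that chose the set, which had to be low in both lines, and is given as a description. The mean centred ratio of the HOW(S)-HA pairs had a median of -1.34 over the 73 transcripts and the nanos-GAL4 ratio one of -1.27. The difference, HOW(S)-HA minus nanos-GAL4, had a median of -0.0267 and lay between -1.28 and 2.17, and over all eligible transcripts its median was -0.00603. For 53 of the 73 (72.6%) the nanos-GAL4 ratio lay between the lowest and highest HOW(S)-HA ratio, for 14 (19.2%) it lay below all of them and for 6 (8.22%) above all of them. Over all eligible transcripts these shares were 56.4%, 20.7% and 22.8%. Across the 73 transcripts the mean HOW(S)-HA ratio and the nanos-GAL4 ratio were correlated, with r = 0.63 (Pearson) and rho = 0.54 (Spearman). The transcripts share the depth and composition of each library.

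**Figure D3:**
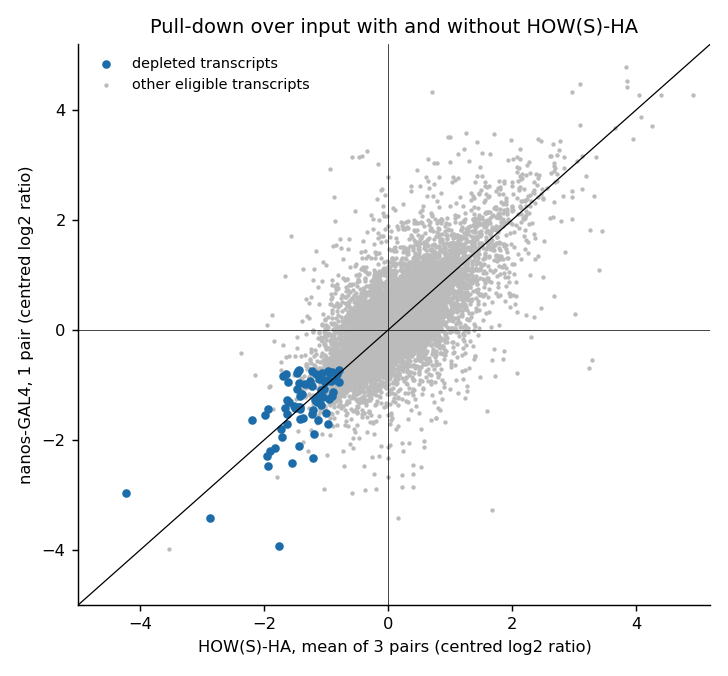
Mean centred log2 ratio of the 3 HOW(S)-HA pairs (horizontal axis) against the centred log2 ratio of the nanos-GAL4 pair (vertical axis), for the 73 depleted transcripts (blue) and the other eligible transcripts (grey), with the diagonal of equal ratios. The blue points lie along the diagonal in the lower left, with 39 to its left, where the HOW(S)-HA mean was lower, and 34 to its right.

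The difference between the lines in the ratio of pull-down to input was also fitted for all transcripts, with edgeR's quasi-likelihood test of the interaction of line and condition. None of the 12346 transcripts tested was called at an adjusted p of at most 0.05 (0%), with a lowest adjusted p of 0.807, and 355 had an unadjusted p under 0.05. Of the 73 depleted transcripts 69 were tested and none was called, which only describes the set, because the interaction is built on the ratios that chose it. Their log2 differences lay between -1.21 and 1.11 around a median of -0.03, against -0.02 for all transcripts tested. The 4 that did not pass the count filter were FBtr0290320, FBtr0301124, FBtr0305657 and FBtr0332358. FBtr0332358, which differed most between the lines by its centred ratios (2.17), was thus not tested. DESeq2 called 7 transcripts (0.0567%) in the same comparison, none of them among the 73. The spread in this test came from the HOW(S)-HA pairs alone, since the nanos-GAL4 line had a single pair, and the standard error of the 69 differences was 0.391 in the median.

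The lines differed most in a handful of transcripts. Less depleted with HOW(S)-HA than without it, after FBtr0332358, were FBtr0082495 and FBtr0082747. FBtr0082495, of 2767 nt, was at 7.16, 5.41 and 8.73 TPM in the HOW(S)-HA pull-downs and 6.72, 10.1 and 13.8 TPM in their inputs, and at 2.87 TPM in the nanos-GAL4 pull-down and 9.08 TPM in the nanos-GAL4 input. The nanos-GAL4 pull-down was the lowest of the libraries. In the edgeR interaction test it alone of the 69 had an unadjusted p under 0.05. Its log2 difference was 1.11 with an SE of 0.379, and its adjusted p was 1.0, so no difference was called. FBtr0082747, of 1555 nt, was at 2.08, 1.2 and 1.28 TPM in the HOW(S)-HA pull-downs and 2.43, 2.48 and 2.99 TPM in their inputs, and at 0.589 TPM in the nanos-GAL4 pull-down and 1.97 TPM in the nanos-GAL4 input.

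More depleted with HOW(S)-HA by the mean of its pairs, after FBtr0346872, were FBtr0302047 and FBtr0300813. For all of these the nanos-GAL4 ratio lay within the range of the HOW(S)-HA ratios. For FBtr0332358, FBtr0082495 and FBtr0082747 it lay below all of them. FBtr0302047 was at 0.927, 1.02 and 0.992 TPM in the HOW(S)-HA pull-downs and 2.53, 2.1 and 1.34 TPM in their inputs, and at 1.25 TPM in the nanos-GAL4 pull-down and 1.39 TPM in the nanos-GAL4 input. Its pull-downs were almost equal in the HOW(S)-HA line, and the 3 inputs were not. FBtr0300813, of 1005 nt, was at 11.2, 5.06 and 2.71 TPM in the HOW(S)-HA pull-downs and 8.52, 11.3 and 11 TPM in their inputs, and at 11.3 TPM in the nanos-GAL4 pull-down and 12.2 TPM in the nanos-GAL4 input. Here the pull-downs varied and the inputs were close, and HOW(S)-HA pull-down 1 resembled that of the nanos-GAL4 line. The smallest spread over the HOW(S)-HA pairs, an SD of 0.0296, was that of a transcript picked after its values were seen, FBtr0087421, with centred ratios of -0.83, -0.77 and -0.78 in HOW(S)-HA pairs 1, 2 and 3 and -0.95 in the nanos-GAL4 pair. Over the set this SD had a median of 0.411, against 0.315 for all eligible transcripts.

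Within the HOW(S)-HA line the ratio of pull-down to input was fitted with edgeR, with the pair as a block. Of the 12618 transcripts tested, 49 were called lower in the pull-down (0.388%) at an adjusted p of at most 0.05 and a log2 fold change of -1 or less. Of the 73 depleted transcripts 69 were tested and 32 were called. The log2 fold changes of the 32 lay between -1.93 and -1.01, and those of all 69 between -4.08 and -0.72 with a median of -1.18, against 0.02 over all transcripts tested. FBtr0346872, at -4.08, was not called, with an adjusted p of 0.0879 in edgeR. The selection used this contrast, so the count only describes the set. It was 7 of the set without HOW(S)-HA pair 1, where 0.295% of all transcripts tested were called lower, and 8 without pair 3, where 0.101% were. Nothing was called lower, in the set or among all tested (0%), without pair 2. The same held with no filter beyond a total of 1 count and with a filter by the compared groups. In these fits, in that order, 68 of 70, 71 of 73 and 70 of 71 of the set were lower at an unadjusted edgeR p under 0.05. Among all transcripts tested these were 628 of 12891, 2073 of 26906 and 1802 of 16878. The set was chosen for low ratios in this contrast, so these counts too only describe it.

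The input levels are another contrast than the one that chose the set, but they were the denominators of the ratios that chose it. The counts of depleted transcripts in this comparison therefore only describe the set. None of the 71 depleted transcripts tested was called between the HOW(S)-HA inputs and the nanos-GAL4 input by edgeR at an adjusted p of at most 0.05, and 2 of all 12694 transcripts tested were (0.0158%). Of the 71, 8 had an unadjusted p under 0.05 (11.3%), against 9.64% of all transcripts tested. DESeq2 called 2 of the set, FBtr0306105 and FBtr0334114, higher in HOW(S)-HA, and 0.638% of all transcripts tested. The median log2 difference was 0.18 for the depleted transcripts and 0.01 for all. With library totals alone as the scaling, it was -0.24 for the depleted transcripts and -0.38 for all, and 1 of the set, FBtr0086807, was called lower, as were 0.394% of all transcripts tested. The sign of this median thus turned with the scaling, as did that of all transcripts tested. The median of the depleted transcripts was the higher one under both scalings.

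FBtr0340438, picked after its values were seen for its low p, was at 4.67, 5.85 and 5.62 TPM in the HOW(S)-HA inputs and 2.72 TPM in the nanos-GAL4 input, with no overlap (edgeR log2 difference 1.39, SE 0.20, adjusted p = 0.338). Its pull-downs were at 3.58, 5.11 and 2.65 TPM in the HOW(S)-HA line and at 2.19 TPM in the nanos-GAL4 line, so that it was higher with HOW(S)-HA in pull-down and input alike and its centred ratios overlapped. FBtr0086807, picked in the same way, went in the other direction. It was at 5.49, 3.50 and 2.17 TPM in the HOW(S)-HA inputs and 15.4 TPM in the nanos-GAL4 input, and at 5.2, 3.18 and 1.32 TPM in the HOW(S)-HA pull-downs and 11.6 TPM in the nanos-GAL4 pull-down. Neither was called by edgeR with TMM or by DESeq2, and FBtr0086807 was called with library totals alone (log2 difference -2.1, edgeR adjusted p = 0.0471).

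The levels in the pull-downs were compared between the lines in the same way. They were the numerators of the ratios that chose the set, so the counts of depleted transcripts again only describe it. None of the 70 depleted transcripts tested was called between the HOW(S)-HA pull-downs and the nanos-GAL4 pull-down by edgeR, and 6 of all 15315 transcripts tested were (0.0392%). Of the 70, 7 had an unadjusted p under 0.05 (10.0%), against 10.6% of all transcripts tested, and DESeq2 called none of them, against 1.26% of all. The median log2 difference was 0.2 for the depleted transcripts and 0.04 for all. It was -0.21 against -0.32 with library totals alone as the scaling, and -0.07 for the depleted transcripts without HOW(S)-HA replicate 3. These 2 comparisons and the interaction all used the same single nanos-GAL4 pair.

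The depleted transcripts were shorter, and in the inputs more abundant, than the eligible transcripts as a whole. Their length ranged between 368 and 8145 nt with a median of 1266 nt, against a median of 1892 nt over all eligible transcripts. At 1000 nt or less were 29 of the 73 (39.7%), against 19.3% of the eligible transcripts. The share of transcripts that were depleted was 2.22% of those between 300 and 500 nt, 0.965% between 500 and 1000 nt, 0.518% between 1000 and 2000 nt, 0.382% between 2000 and 4000 nt and 0.25% between 4000 and 10000 nt. The first of these rested on 8 transcripts and the last on 5. In the inputs the mean TPM of the depleted transcripts had a median of 10.8, against 4.34 over all eligible transcripts, and 38 of the 73 (52.1%) reached 10 TPM, against 31.2%. Input TPM is the denominator of the ratio that chose them, so this is a description. In HOW(S)-HA pull-downs 1, 2 and 3 their median TPM was 7.95, 5.98 and 6.85, against 7.39, 7.42 and 5.25 for all eligible transcripts. In the nanos-GAL4 pull-down it was 8.49 against 8.12. The depleted share was 0.146% below 1 TPM, and 2.19% between 100 and 1000 TPM, where 9 of 411 were in the set.

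**Figure D4:**
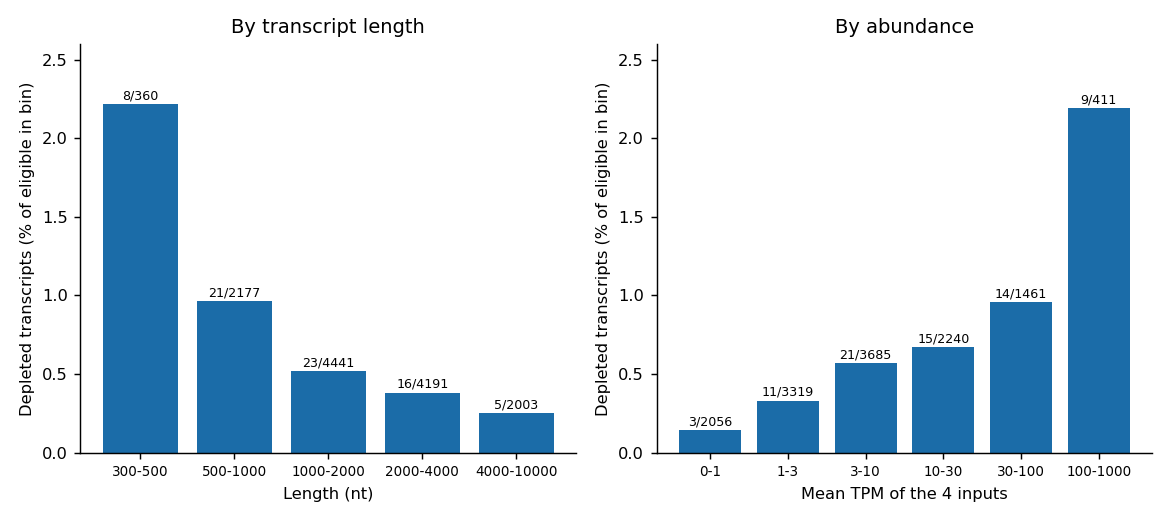
Share of eligible transcripts that were depleted (percent, vertical axis from 0) in bins of transcript length (left) and of mean TPM over the 4 inputs (right), with the number depleted over the number eligible above each bar. The share was 2.22% in the shortest bin and 0.25% in the longest, and 0.146% in the rarest bin and 2.19% in the most abundant.

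Length went with the ratio across the eligible transcripts as a whole. The median of the mean centred ratio was -0.53 for eligible transcripts of 300 to 500 nt, -0.34 for 500 to 1000 nt, -0.08 for 1000 to 2000 nt, 0.15 for 2000 to 4000 nt and 0.48 for 4000 to 10000 nt, with a Spearman correlation of 0.53 between length and ratio across the 13172 transcripts. The mean input TPM had a Spearman correlation of -0.41 with the ratio, but input TPM is the denominator of the ratio and also went down with length (Spearman -0.53). Within the 73 the relation of ratio to length ran the other way, at a Spearman correlation of -0.37. The depleted transcripts of the same 5 length bins had medians of -1.24, -1.14, -1.37, -1.49 and -1.48. A long transcript had to lie further from others of its length to be selected. Relative to the median of its own length bin, the mean centred ratio of the 73 was between -3.84 and -0.39 with a median of -1.19. All had to be below 0 here, since the lowest bin median, -0.53, is above the threshold.

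The depleted RNAs were counted about as well as the rest. Their ratios varied more over the HOW(S)-HA pairs, but those ratios chose the set, so this is a description. The SD of the ratio over the HOW(S)-HA pairs had a median of 0.411, against 0.315 for all eligible transcripts. The counting standard error of the log2 ratio, averaged over the pairs, had a median of 0.12 for the 73 and 0.113 for all eligible transcripts, and the smallest number of estimated reads in any library had a median of 160 and 161. Between the HOW(S)-HA inputs their coefficient of variation was 0.167 in the median, against 0.215. Reads were whole numbers in all 8 libraries for 21 of the 73 (28.8%), against 31.5% of the eligible transcripts. These 21, whose reads were not divided among isoforms or copies, had a median of the mean centred ratio of -1.26, and the other 52 had -1.3. Both groups had to be low in every pair to be selected, so these medians only describe them. The set held transcripts with whole reads and with divided reads, and the 2 most depleted had divided ones.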

How the data were processed

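Per the labels and the study's methods, RNA of inputs and anti-HA pull-downs was depleted of rRNA, made into stranded total RNA libraries and sequenced as single-end reads. The authors trimmed with cutadapt 1.1, removed rRNA and tRNA reads with Subread 2.0.0 and quantified transcripts with Salmon 0.14.2. The authors deposited TPM and Salmon's estimated counts per transcript. TPM is relative within each library, and the estimated counts are not normalised and can be divided among similar transcripts. Transcript-to-gene tables, transcript sequences and positions were not used here. Of 30070 transcripts, 52 could be paired with a name through the study's text or tables, 29 of them eligible, so the gene lists and cell type markers that had been fixed could not be applied, nor could isoforms be grouped.

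Ratios of deposited TPM were formed within each pair and centred on the median of the eligible transcripts. The members and lists were chosen with earlier results of these data known. Counting errors are Poisson errors of the estimated counts and cover counting only. A read number within 0.001 of a whole number was taken as whole.

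For tests, TPM was scaled to each library's total of estimated counts, as in the methods, and rounded. Transcripts passed filterByExpr with the libraries as 1 group (minimum count 10, minimum total 15), and TMM and the legacy quasi-likelihood test of edgeR 4.0.16 in R 4.3.3 followed, with Benjamini-Hochberg adjustment over all transcripts tested. Pull-down against input had the pair as a block because both came from the same lysate. Comparisons of the lines had 1 nanos-GAL4 sample, which is assumed to vary like the HOW(S)-HA samples. The script was tested on simulated data. Alternatives covered the scaling, the count type, the filter, DESeq2 1.42.0, the block, each replicate, and, for the selection, the minimum of 50 reads, the abundant transcripts and the centring. The selection without the nanos-GAL4 pair was added after seeing the data.

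Transcripts named are the 10 lowest, the 5 most abundant, the 3 longest and shortest, the 3 on either side of the threshold and the 3 that differed most between the lines in each direction. Others are said to be picked after their values were seen.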

Additional observations from a re-analysis of the deposited data

How the results depend on the processing

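The 73 transcripts became 51 with a minimum of 50 reads, 77 with the abundant transcripts kept (70 of them shared) and 94 with TMM centring (all 73 shared). With a HOW(S)-HA replicate left out of the selection they were between 89 and 338, with 132 without replicate 1 and 338 without replicate 3. Calls of lower RNA in HOW(S)-HA pull-downs than inputs, 49 in all, were 23 with library totals alone, 17 with Salmon's estimated counts, 173 with the DESeq2 Wald test, and 0 with no filter beyond a total of 1 count or with a filter by the compared groups. Without the replicate block they were 81, of which 39 in the set, and with a replicate left out between 0 and 41. In the test of the difference between lines, with 0 calls, library totals alone gave 4 and DESeq2 7. Between inputs, with 2 calls, library totals alone gave 61 and DESeq2 97, Salmon's estimated counts and the other filters gave 0, and leaving out a HOW(S)-HA replicate gave between 0 and 6. Between pull-downs, with 6 calls, library totals alone gave 89 and DESeq2 193, DESeq2 size factors, Salmon's estimated counts and the other filters gave 0, and leaving out a replicate gave between 0 and 12. The cause of these changes was not tested. The comparisons of the lines have no paired form, since a single nanos-GAL4 sample pairs with no other. Depth was lowest in HOW(S)-HA input 1, at 9.13 M reads. TMM centring shifted every ratio of a pair by the same amount, -0.072, -0.047 and -0.029 in HOW(S)-HA pairs 1, 2 and 3. For the 23 transcripts of the set named by the rule, the mean HOW(S)-HA ratio moved by less than its SD over the 3 pairs. The shift was common to all transcripts, so this does not test single ratios.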

Other observations

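Of the 10 most depleted transcripts, 3 had neighbouring identifiers (FBtr0346872, FBtr0346892 and FBtr0346895). The run of identifiers around them was examined after their values were seen. Between FBtr0346862 and FBtr0346904 the tables list 21 transcripts, some of them very short, at 123 and 30 nt. Their annotation was not analysed here. Another of the run, FBtr0346896, had centred ratios of -6.5, -3.69 and -0.42 in HOW(S)-HA pairs 1, 2 and 3 and of -3.99 in the nanos-GAL4 pair, and missed the set through pair 3 only. FBtr0346902, which was among the 200 most abundant and so was not eligible, was at 26.9, 19.0 and 49.7 TPM in the HOW(S)-HA pull-downs and 697, 156 and 154 TPM in their inputs, and at 11.9 TPM in the nanos-GAL4 pull-down and 182 TPM in the nanos-GAL4 input. FBtr0346900, also among the most abundant, was at 431, 224 and 383 TPM in the HOW(S)-HA pull-downs and 1950, 540 and 478 TPM in their inputs, and at 233 TPM in the nanos-GAL4 pull-down and 686 TPM in the nanos-GAL4 input. In both, HOW(S)-HA input 1 was well above the other inputs, as it was for FBtr0346872. Not all of the run was depleted. FBtr0346862 had centred ratios of 1.45, 2.72 and 1.26 in the HOW(S)-HA pairs and 1.28 in the nanos-GAL4 pair.

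The lowest values in HOW(S)-HA pair 3, the pair with the narrowest spread, belonged to transcripts that were not among the 10 most depleted and were picked for this after their values were seen. FBtr0113028, of 1928 nt, was at 0.513 TPM in that pull-down and 2.29 TPM in that input, a centred ratio of -2.42, and had ratios of -1.50 and -0.92 in HOW(S)-HA pairs 1 and 2 and of -0.95 in the nanos-GAL4 pair. FBtr0300813 had a ratio of -2.29 in pair 3.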
